A study of Mus musculus with 6 samples.

Results

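Claudins, cadherins and protocadherins are the membrane proteins through which neighbouring cells seal to and hold one another, and 75 of the 18193 genes measured in these embryonic mouse kidneys belong to them. Members were the genes whose symbol begins with Cldn or Cdh followed by a number, or with Pcdh, that had a probe set annotated to that gene alone. Cldn5, Cdh4, Cdh5, Cdh6 and Cdh16 were left out. The members comprised 23 claudins, 17 cadherins (4 type I, 9 type II and 4 others) and 35 protocadherins (12 non-clustered and 23 of the gene clusters). Where a gene had several probe sets, the one of highest mean was used, on the deposited log2 intensity scale.

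Kidneys were taken whole at E13.5, an early stage of nephron formation, from mice of mixed C57BL/6, 129X1/SvJ and 129S1/Sv background. The first group, called double-null here, had the genotype Fz4-/-Fz8-/- and comprised arrays M1, M2 and M3. The other, called Fz8-null, had the genotype Fz4+/+Fz8-/- and comprised arrays C1, C2 and C3. All 6 therefore lacked Fz8, and the groups differed in Fz4; both are Frizzled receptors for Wnt ligands. The labels number the 3 samples of a genotype without saying whether 1 embryo or a pool gave each, so p-values measure the spread between these samples. No wild-type kidney was analysed here, and the labels name no Cre line or transgene.

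Claudins are the strands of the tight junction, where they set which ions pass between epithelial cells, and each nephron segment later carries its own combination. Classical cadherins bind their like on the next cell and are tied to actin through catenins, including beta-catenin, which is also the messenger of canonical Wnt signalling. In the early kidney E-cadherin marks the ureteric tree and forming tubules, whereas mesenchyme carries other cadherins such as cadherin 11. Protocadherins are weaker adhesion molecules best known for giving neurons their identities, and the clustered genes share a few chromosomal arrays of tandem copies.

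None of the 75 members passed the threshold of an adjusted p of 0.05 between genotypes (limma with Benjamini-Hochberg adjustment over all 18193 genes; lowest adjusted p among members 0.314), where 0.0275% of all genes did. Members lay on both sides of 0. In double-null kidneys 39 read lower and 36 higher, with a median log2 difference of -0.01, against 10576 of 18193 genes lower and a median of -0.06. The sign of the members' median turned when array medians were made equal (0.05). At an unadjusted p under 0.05, 3 members were lower, against 9.23% of all genes, and 7 were higher, against 6.05% of all genes. The 3 were Cldn6, Cldn7 and Pcdh7, and the 7 were Cldn16, Cldn34b2, Cdh7, Cdh8, Cdh19, Pcdh10 and Pcdh15. All 3 double-null arrays lay below every Fz8-null array for 7 members, where 12.2% of all genes did so, and above for 4, where 6.68% of all genes did so.

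Fzd4 checked the labels, at 5.29, 4.96 and 3.89 in double-null kidneys and 10.74 to 10.93 in Fz8-null kidneys. Within the double-null group M1 and M2 stood apart from M3 on some controls, though not on all. The control probe set for the B1 genomic repeat read 11.83, 12.08 and 10.85 in M1, M2 and M3, against 10.67 to 11.02 in the Fz8-null arrays. Beta-actin signal at the 5' end minus that at the 3' end was -1.30, -1.08 and -0.57 in M1, M2 and M3 and -1.003, -0.74 and -0.75 in C1, C2 and C3. Other controls set all 3 double-null arrays apart. The 5' probe set for 18S RNA read 9.88, 10.56 and 9.86 in M1, M2 and M3, against 7.59 to 8.53 in the Fz8-null arrays. A BioB control read 10.59, 10.86 and 10.79 there, against 9.74 to 10.44. A further 18S probe set had M1 and M2 lowest and M3 highest. The part of these differences in the members' values was not tested. Many members followed the split of M1 and M2 from M3. For 14 of 75 members (18.7%) both M1 and M2 lay above every Fz8-null array while M3 did not, as for 12.6% of all genes. For 16 members (21.3%) M1 and M2 lay below and M3 did not, as for 21.9% of all genes. Without M3, 18 of the 75 members (24%) passed the adjusted threshold, as did 18.1% of all genes, 9 of the members lower and 9 higher. Among them Pcdh10 stood at 2.57 (limma adjusted p = 0.00494), Cdh8 at 2.52 (0.00667), Cdh10 at 1.74 (0.00379), Cldn4 at -1.53 (0.00945) and Cldn7 at -0.69 (0.0228), each from M1 and M2 against the 3 Fz8-null arrays. With array weights, which weighted M1 most and M3 least, 33 members (44%) passed, as did 41.6% of all genes. These patterns were described after the values were seen, and the part of the repeat signal or of RNA quality in them was not tested.

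**Figure D1:**
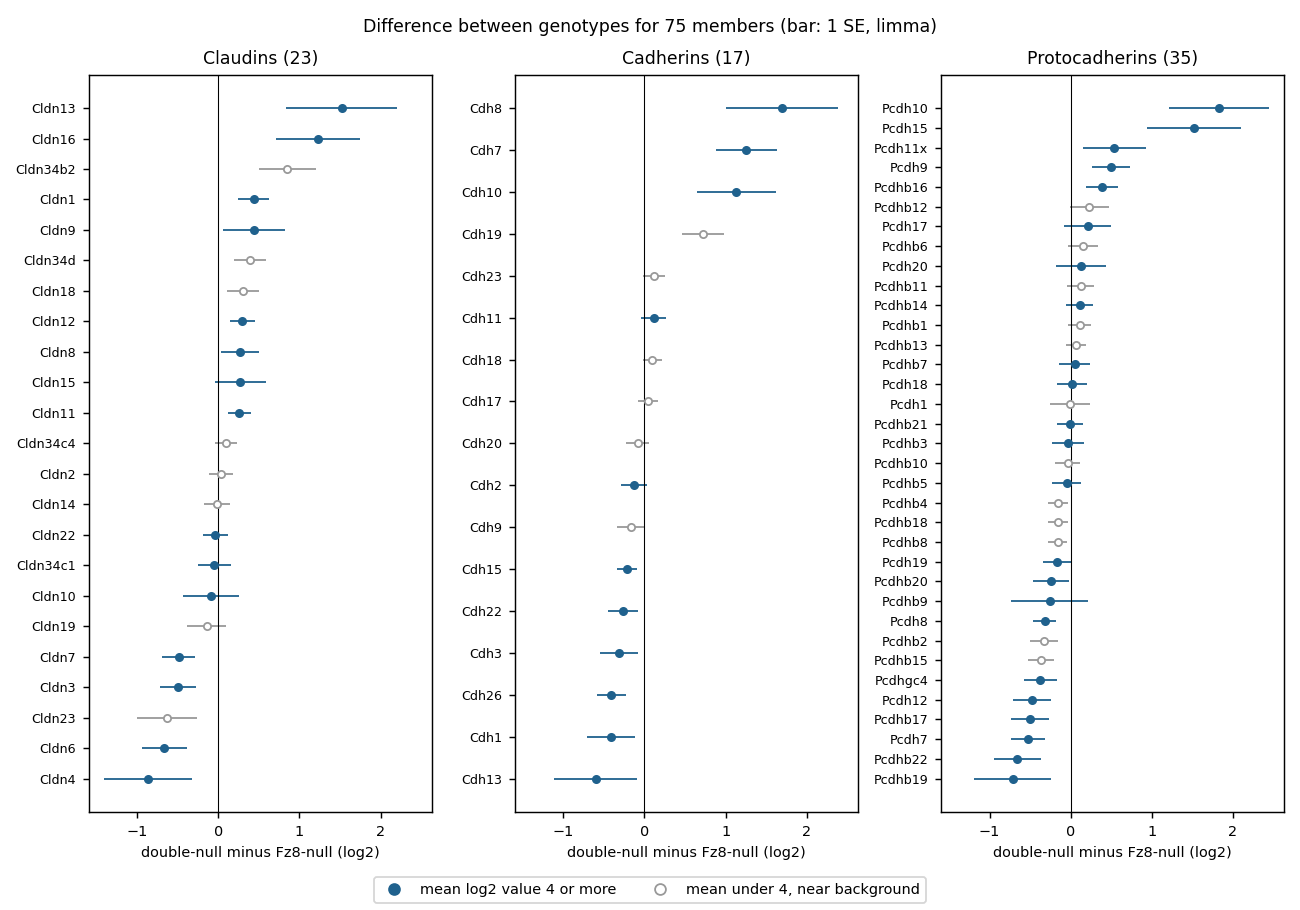
Difference between genotypes (double-null minus Fz8-null, log2) for the 23 claudins, 17 cadherins and 35 protocadherins, with bars of 1 SE from limma; open symbols have a mean log2 value under 4. Pcdh10, Cdh8, Cldn13 and Pcdh15 stand farthest to the right with wide bars, and no member passed the adjusted threshold.

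The arrays' lower quartile lay at log2 values of 4.02 to 4.31, and a mean under 4 was read as near background. By that measure 26 members were near background, 17 had a mean of 4 to 6, and 32 had a mean of at least 6. Of the 32, 18 read lower and 14 higher in double-null kidneys (median -0.04), against 7991 of 11174 genes with such a mean (median -0.15). Claudins near background included Cldn2, the paracellular cation channel of the later proximal tubule, Cldn14 and Cldn19, the last a claudin of the thick ascending limb. Cdh17, the liver-intestine cadherin, and Cdh18 and Cdh20 were also in that range, as were 11 of the 23 clustered protocadherins.

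Claudins went in both directions, with 10 of 23 lower and 13 higher in double-null kidneys (median 0.10). Cldn6, a claudin of embryonic epithelia, read 10.001, 9.82 and 10.57 in the double-null arrays M1, M2 and M3 and 10.31, 11.06 and 11.02 in the Fz8-null arrays C1, C2 and C3. The groups overlapped, since M3 exceeded C1, and the difference was -0.67 (SE 0.28, limma adjusted p = 0.326). Cldn7, a claudin of the collecting duct epithelium, read 9.50, 9.22 and 9.97 in double-null kidneys and 10.04, 10.07 and 10.05 in Fz8-null kidneys. Every double-null array lay below, M3 only by a small margin, with a difference of -0.49 (SE 0.20, limma adjusted p = 0.325).

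In the adjacent genes Cldn4 and Cldn3, M1 and M2 were also low; like the further claudins below, other than Cldn8 and Cldn34b2, they were chosen after their values were seen. Cldn4, a barrier claudin of the collecting duct, read 4.77, 4.05 and 6.41 in double-null kidneys and 5.99, 5.90 and 5.92 in Fz8-null kidneys. M1 and M2 were low and M3 was the highest of the 6 arrays. Cldn3, a barrier claudin, read 7.20, 7.15 and 7.91 in double-null kidneys and 7.96, 7.98 and 7.80 in Fz8-null kidneys. All 4 Cldn3 probe sets pointed the same way, with differences between -0.67 and -0.48. Without M1 and M2, which leaves M3 alone and assumes that it varies like the Fz8-null arrays, Cldn7 stood at -0.08, Cldn6 at -0.23, Cldn3 at -0.0074 and Cldn4 at 0.47, none of them past the threshold.

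The reference sequence around the start of these 4 claudins is shown because they read low in M1 and M2. That was seen before they were chosen. Cldn19 also read low in M1 and M2, near background, and its sequence is not shown. A further reason is that Snai and Zeb factors, repressors of epithelial junction genes, bind the E-box CAGGTG. Each window runs from 250 bases before to 50 bases after an annotated start (RefSeq, GRCm38.p6, 5' to 3' along the gene), and capitals mark CAGGTG or its complement CACCTG.
Cldn3, chr5:134985964-134986263, plus strand: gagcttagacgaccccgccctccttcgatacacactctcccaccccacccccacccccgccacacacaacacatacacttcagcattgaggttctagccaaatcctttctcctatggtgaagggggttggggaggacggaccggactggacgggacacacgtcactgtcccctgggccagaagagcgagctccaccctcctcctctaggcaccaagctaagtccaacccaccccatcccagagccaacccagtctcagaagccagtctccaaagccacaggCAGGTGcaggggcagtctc
Cldn4, chr5:134946885-134947184, minus strand: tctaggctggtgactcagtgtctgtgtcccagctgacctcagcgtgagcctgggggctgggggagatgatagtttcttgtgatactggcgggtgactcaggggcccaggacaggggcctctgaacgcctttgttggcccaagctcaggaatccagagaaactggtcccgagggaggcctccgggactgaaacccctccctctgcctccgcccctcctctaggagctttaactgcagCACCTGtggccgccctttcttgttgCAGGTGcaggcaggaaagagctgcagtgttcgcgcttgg
Cldn6, chr17:23679115-23679414, plus strand: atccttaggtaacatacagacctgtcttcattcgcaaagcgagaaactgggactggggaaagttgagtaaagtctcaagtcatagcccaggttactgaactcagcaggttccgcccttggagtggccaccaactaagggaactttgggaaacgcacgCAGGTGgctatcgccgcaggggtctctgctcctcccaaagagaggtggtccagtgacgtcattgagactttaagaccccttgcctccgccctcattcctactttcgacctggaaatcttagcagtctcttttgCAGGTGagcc
Cldn7, chr11:69965171-69965470, plus strand: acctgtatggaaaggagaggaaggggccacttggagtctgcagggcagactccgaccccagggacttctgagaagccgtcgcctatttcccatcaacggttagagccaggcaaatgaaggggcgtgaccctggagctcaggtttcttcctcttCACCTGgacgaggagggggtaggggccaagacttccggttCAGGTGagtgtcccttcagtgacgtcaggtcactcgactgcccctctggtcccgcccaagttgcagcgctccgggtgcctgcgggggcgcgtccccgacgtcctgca
Cldn3 had 1 match and Cldn4, Cldn6 and Cldn7 had 2 each. In Cldn4 the matches began 14 bases before and 12 bases after the start. A second annotated start of Cldn7 had none. The table held windows for 37 of the 75 members, not including Cdh1 or Cdh3, and 8 of the 37 (21.6%) had a match, against 22.6% of all 27025 genes with a window; the others were Cdh7, Pcdh7, Pcdh15 and Cldn14. None of these letters overlapped a GC box (GGGCGG or CCGCCC), of which Cldn3 and Cldn7 had 1 and Cldn4 and Cldn6 had 2, and which 38.2% of all genes with a window had. Matches did not follow direction throughout. In 6 members with a window, M1 and M2 but not M3 lay below every Fz8-null array. Of these, Cldn3, Cldn4, Cldn6 and Pcdh7 had a match and Cldn19 and Cdh26 had none. In 10, M1 and M2 but not M3 lay above, and Pcdh15 alone had a match. All 3 double-null arrays lay above in 3, of which Cdh7 had a match, and below in 3, of which Cldn7 did. Of the other 15, Cldn14 alone had a match. These counts rest on the probe set of highest mean, and the other Pcdh7 probe sets read higher in double-null kidneys. They were made after the values were seen and carry no test. A match is a description of letters, not a bound site.

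Cldn19 was low in M1 and M2 too, near background, at 3.12, 2.91 and 3.81 in double-null kidneys and 3.30, 3.58 and 3.39 in Fz8-null kidneys, with M3 the highest array. Cldn8, which seals the distal and collecting tubule against cation backflow, read 10.94, 10.71 and 10.07 in double-null kidneys and 10.27, 10.21 and 10.43 in Fz8-null kidneys. M1 and M2 were the highest arrays and M3 the lowest, so the groups overlapped (0.27, SE 0.23, limma adjusted p = 0.557). Cldn12, an atypical claudin without the usual scaffold-binding tail, stood at 0.30 and Cldn1, a barrier claudin of skin and parietal epithelium, at 0.44, both overlapping. Cldn11, the claudin of myelin and Sertoli cell junctions, read 9.22, 8.93 and 8.93 in double-null kidneys and 8.66, 8.87 and 8.77 in Fz8-null kidneys. It was higher in each double-null array by a narrow margin (0.26, SE 0.14, limma adjusted p = 0.383).

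Cldn16, which with Cldn19 forms the magnesium and calcium pathway of the thick ascending limb, read 5.42, 5.41 and 3.47 in double-null kidneys and 3.65, 3.70 and 3.26 in Fz8-null kidneys. Again M1 and M2 were high and M3 lay inside the Fz8-null range (1.23, SE 0.52, limma adjusted p = 0.327). Cldn34b2, an X-linked relative of the claudins, had 3.91, 3.96 and 2.72 in double-null kidneys and 2.99, 2.65 and 2.40 in Fz8-null kidneys. All of its values were near background (0.85, SE 0.35, limma adjusted p = 0.327).

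Cldn13, a mouse claudin of blood-forming tissue, had a pattern of its own among the members. It read 4.37, 6.14 and 7.42 in double-null kidneys and 4.40, 4.58 and 4.39 in Fz8-null kidneys, so M2 and M3 were high and M1 was not (1.52, SE 0.69, limma adjusted p = 0.334). Of the 9 erythroid markers measured, 8 read higher in double-null kidneys, and their summed linear intensity was 641, 6643 and 7491 in M1, M2 and M3 against 1583 to 2068 in Fz8-null kidneys. Hba-a1 and Rhag were near background in both groups. Liver markers were high in the same arrays. All 7 measured read higher in double-null kidneys, and their summed linear intensity was 1083, 9229 and 10261 in M1, M2 and M3 against 437 to 765 in Fz8-null kidneys, with none near background in both groups. Relative to the Fz8-null mean the liver list averaged 0.82, 3.48 and 3.74 and the erythroid list -0.49, 2.17 and 2.31 in M1, M2 and M3 (log2). Without M1 and M2, Cldn13 was the only member past the threshold (2.97, limma adjusted p = 0.00786), where 0.302% of all genes passed, a comparison of M3 alone with the 3 Fz8-null arrays. The part of blood or liver cells in this difference was not tested. In whole kidneys a change in the number of cells of a type and a change in RNA per cell cannot be told apart.

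All 4 type I cadherins, each with a mean of at least 6, read lower in double-null kidneys. Of all 11174 genes with such a mean 7991 did. The 4 also read lower under quantile normalization and equal array medians, and none passed. Without M1 and M2 the split was 3 lower and 1 higher. Cdh1, the E-cadherin of ureteric and tubular epithelium, read 10.20, 9.15 and 10.28 in double-null kidneys and 10.24, 10.29 and 10.34 in Fz8-null kidneys. M2 was far below the other arrays (-0.41, SE 0.30, limma adjusted p = 0.487). Without M2 it was -0.051. Cdh3, the P-cadherin encoded beside Cdh1 on chromosome 8, read 6.12, 6.03 and 6.83 in double-null kidneys and 6.84, 6.56 and 6.51 in Fz8-null kidneys. M1 and M2 were low and M3 was among the highest arrays (-0.31, SE 0.24, limma adjusted p = 0.505).

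Cdh2, the N-cadherin of mesenchyme and early nephron, read 11.19, 11.12 and 10.79 in double-null kidneys and 11.11, 11.05 and 11.32 in Fz8-null kidneys. The groups overlapped, at -0.13 (SE 0.16, limma adjusted p = 0.677), and another Cdh2 probe set stood at -0.27. Cdh15, the M-cadherin of muscle precursors, read 6.75, 6.80 and 6.88 in double-null kidneys and 7.08, 7.09 and 6.89 in Fz8-null kidneys. The double-null arrays were lower throughout, M3 and C3 lying close together (-0.21, SE 0.13, limma adjusted p = 0.411). Of the 10 skeletal muscle markers, 8 read lower, and none was near background in both groups. Their summed linear intensity ran from 666 to 2051 in double-null kidneys and from 1225 to 4081 in Fz8-null kidneys. Relative to the Fz8-null mean the list averaged -1.29, -0.28 and -0.10 in M1, M2 and M3. It averaged -0.66, 0.87 and -0.20 in C1, C2 and C3. Cdh15 stood at -0.27, -0.22 and -0.14 in M1, M2 and M3 and at 0.06, 0.07 and -0.13 in C1, C2 and C3. The part of muscle cells in the Cdh15 values was not tested.

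**Figure D2:**
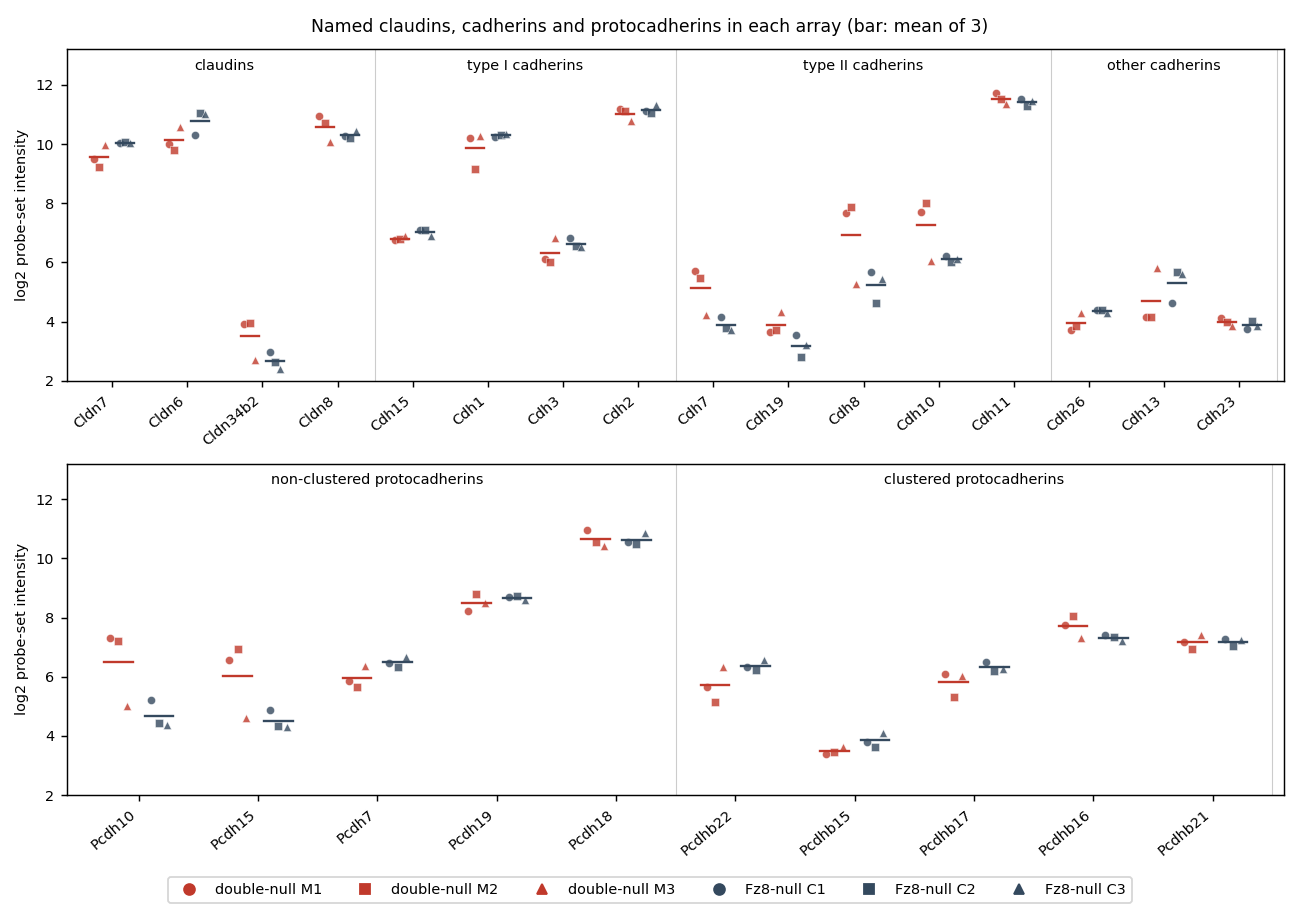
Log2 probe-set intensity of the 26 named members in each array, double-null (red, left) beside Fz8-null (dark, right) for every gene, with a bar at the mean of 3 arrays and the symbol shape giving the array. Cdh8, Cdh10, Pcdh10 and Pcdh15 have M1 and M2 high and M3 beside the Fz8-null arrays, and for Cdh1 M2 alone is low.

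Among type II cadherins, which pattern neurons and mesenchyme, 6 of 9 read higher in double-null kidneys, against 7617 of 18193 genes. Of all 9, 3 were higher at an unadjusted p under 0.05, against 6.05% of all genes. Cdh8, known from synapses and sensory circuits, read 7.67, 7.89 and 5.28 in double-null kidneys and 5.68, 4.64 and 5.44 in Fz8-null kidneys. M1 and M2 were far above and M3 was inside the Fz8-null range (1.69, SE 0.69, limma adjusted p = 0.324). Cdh10, a neuronal and brain endothelial cadherin, read 7.69, 8.02 and 6.04 in double-null kidneys and 6.21, 6.02 and 6.13 in Fz8-null kidneys, with the same split (1.13, SE 0.48, limma adjusted p = 0.328).

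Cdh7, a cadherin of migrating neural crest in chick, read 5.70, 5.47 and 4.23 in double-null kidneys and 4.14, 3.77 and 3.72 in Fz8-null kidneys. All 3 double-null arrays lay above, M3 narrowly (1.26, SE 0.38, limma adjusted p = 0.314). Without M1 and M2 the differences were 0.02 for Cdh8, -0.08 for Cdh10 and 0.35 for Cdh7. The probe sets of these genes were not uniform. The other 3 of Cdh10 stood at 0.42 to 0.90, the other 2 of Cdh7 at 0.46 and 1.70, and the other 2 of Cdh8 at 1.24 and -0.54. In the other 3 of Cdh10, M1 and M2 lay above every Fz8-null array, but the place of M3 varied. In the brightest of the 3, M3 lay below every Fz8-null array, at 4.91 against 5.59 to 5.77. In the next M3 was also below, at 4.096 against 5.29 to 5.42, and in the last it lay inside the Fz8-null range.

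Cdh19, the chromosome 1 neighbour of Cdh7 and a cadherin of neural crest and Schwann cell precursors, read 3.65, 3.72 and 4.34 in double-null kidneys and 3.55, 2.79 and 3.20 in Fz8-null kidneys. It was higher in each double-null array and, unlike Cdh7, M3 was the highest (0.72, SE 0.26, limma adjusted p = 0.314), though the values were near background. Of the 7 neuron and neural crest markers measured, 6 read higher in double-null kidneys. Their summed linear intensity ran from 497 to 680 in double-null kidneys and from 549 to 641 in Fz8-null kidneys, with Th near background in both groups. Sox10, the defining factor of crest glia, read 5.30, 5.58 and 5.53 in double-null kidneys and 5.15, 4.83 and 5.11 in Fz8-null kidneys. It had the smallest p of the list. Elavl4, the brightest of the list, was lower, at 8.22, 8.49 and 7.80 against 8.45, 8.55 and 8.75. Both were named after their values were seen. Relative to the Fz8-null mean the list averaged -0.04, 0.44 and 0.25 in M1, M2 and M3. Cdh19 stood at 0.47, 0.54 and 1.16 there. The part of neurons or neural crest cells in the Cdh19 values was not tested.

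Cdh11, the cadherin of mesenchyme and stroma, read 11.74, 11.52 and 11.34 in double-null kidneys and 11.51, 11.28 and 11.46 in Fz8-null kidneys, a difference of 0.11 (SE 0.15, limma adjusted p = 0.707). The groups overlapped, and the second Cdh11 probe set stood at 0.02. Among the remaining cadherins, Cdh13, a cadherin anchored by lipid in place of a membrane-spanning tail, read 4.16, 4.15 and 5.82 in double-null kidneys and 4.62, 5.69 and 5.62 in Fz8-null kidneys. M1 and M2 were low and M3 was the highest array (-0.60, SE 0.51, limma adjusted p = 0.548). Cdh26 stood at -0.41 (SE 0.18, limma adjusted p = 0.330), with 3.71, 3.84 and 4.30 in double-null kidneys and 4.39, 4.41 and 4.29 in Fz8-null kidneys, which overlapped. Cdh23, a component of the hair cell tip link, read 4.13, 3.996 and 3.86 in double-null kidneys and 3.75, 4.02 and 3.86 in Fz8-null kidneys, overlapping and near background.

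**Figure D3:**
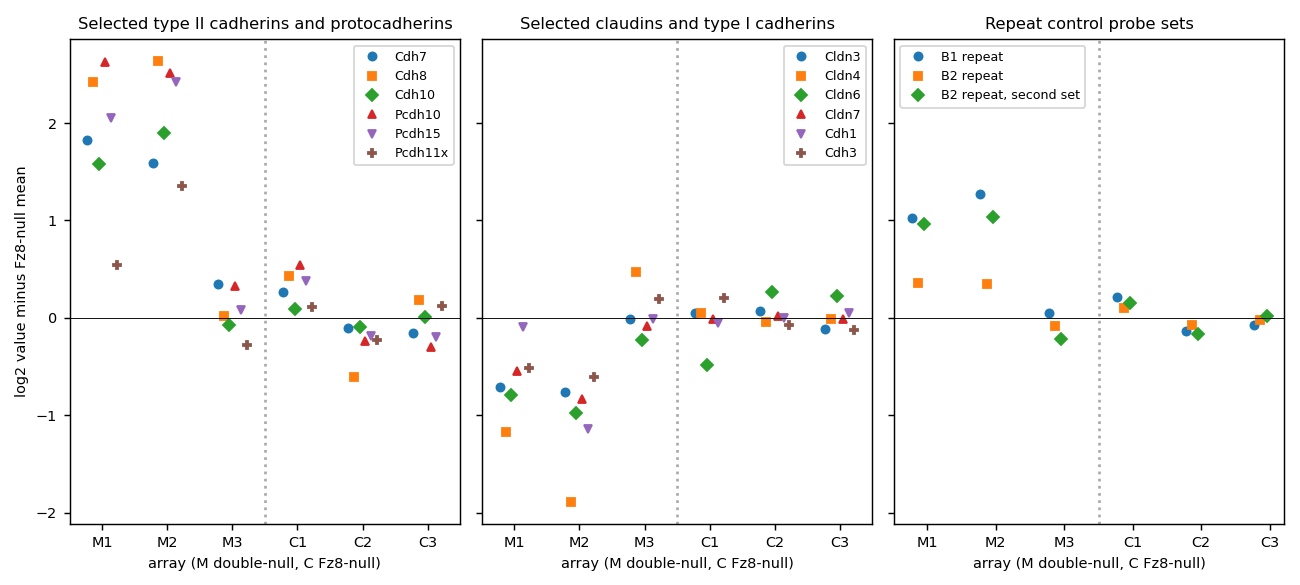
Log2 value minus the Fz8-null mean in each array (M, double-null, left; C, Fz8-null, right) for selected type II cadherins and protocadherins, for Cldn3, Cldn4, Cldn6, Cldn7, Cdh1 and Cdh3, and for the control probe sets of genomic repeats; the genes shown were chosen after their values were seen. The first panel is high and the second mostly low in M1 and M2, where the B1 control is also high, and M3 lies nearer the Fz8-null arrays.

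Of all members, the non-clustered protocadherin Pcdh10 had the largest difference. Pcdh10, a protocadherin of axon outgrowth, read 7.31, 7.20 and 5.01 in double-null kidneys and 5.22, 4.45 and 4.38 in Fz8-null kidneys. M1 and M2 were high and M3 was inside the Fz8-null range (1.82, SE 0.62, limma adjusted p = 0.314), and all 5 other probe sets of Pcdh10 were positive, from 0.35 to 2.22. Pcdh15, which joins Cdh23 in the hair cell tip link, read 6.56, 6.93 and 4.59 in double-null kidneys and 4.89, 4.32 and 4.32 in Fz8-null kidneys, with the same split (1.52, SE 0.58, limma adjusted p = 0.318). Its partner Cdh23 did not share the form. Pcdh11x, an X-linked neural protocadherin named after its values were seen, stood at 0.54 (SE 0.38, limma adjusted p = 0.483).

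Pcdh7, another non-clustered protocadherin, read 5.85, 5.65 and 6.37 in double-null kidneys and 6.47, 6.33 and 6.66 in Fz8-null kidneys. M3 lay just inside the Fz8-null range (-0.53, SE 0.21, limma adjusted p = 0.320). The other 2 Pcdh7 probe sets pointed the opposite way, at 0.39 and 0.95, with 6.82, 6.98 and 5.23 in double-null kidneys and 5.64, 5.23 and 5.31 in Fz8-null kidneys for the brighter. Thus the direction of Pcdh7 depends on the probe set read. Pcdh19, whose human counterpart is mutated in an X-linked epilepsy, read 8.21, 8.79 and 8.49 in double-null kidneys and 8.68, 8.72 and 8.61 in Fz8-null kidneys (-0.17, SE 0.17, limma adjusted p = 0.610). Its groups overlapped, while the other 2 probe sets stood at -0.55 and -0.51. Pcdh18 read 10.94, 10.57 and 10.41 in double-null kidneys and 10.56, 10.48 and 10.84 in Fz8-null kidneys, overlapping, with a difference of 0.01 (SE 0.18, limma adjusted p = 0.979).

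Of the others, named after their values were seen, Pcdh8, a relative of the Xenopus protocadherin of gastrulating mesoderm, read 7.81, 7.90 and 7.59 in double-null kidneys and 8.04, 7.99 and 8.22 in Fz8-null kidneys. It was lower in each double-null array and M3, not M2, was the lowest (-0.32, SE 0.14, limma adjusted p = 0.333), with a second probe set at -0.86. Pcdh12, a protocadherin of vascular endothelium, read 7.45, 6.92 and 7.85 in double-null kidneys and 7.78, 7.87 and 8.002 in Fz8-null kidneys (-0.48, SE 0.24, limma adjusted p = 0.356). Of 8 endothelial markers 6 read lower; relative to the Fz8-null mean their average was -0.36, -0.72 and -0.03 in M1, M2 and M3, and their summed linear intensity ran from 2457 to 3420 in double-null kidneys and from 3205 to 3718 in Fz8-null kidneys, with none near background in both groups. M2 was also the lowest array for several other lists, such as the ureteric epithelium and committing nephron markers given below, though not for all. The part of endothelial cells in the Pcdh12 values was not tested.

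**Figure D4:**
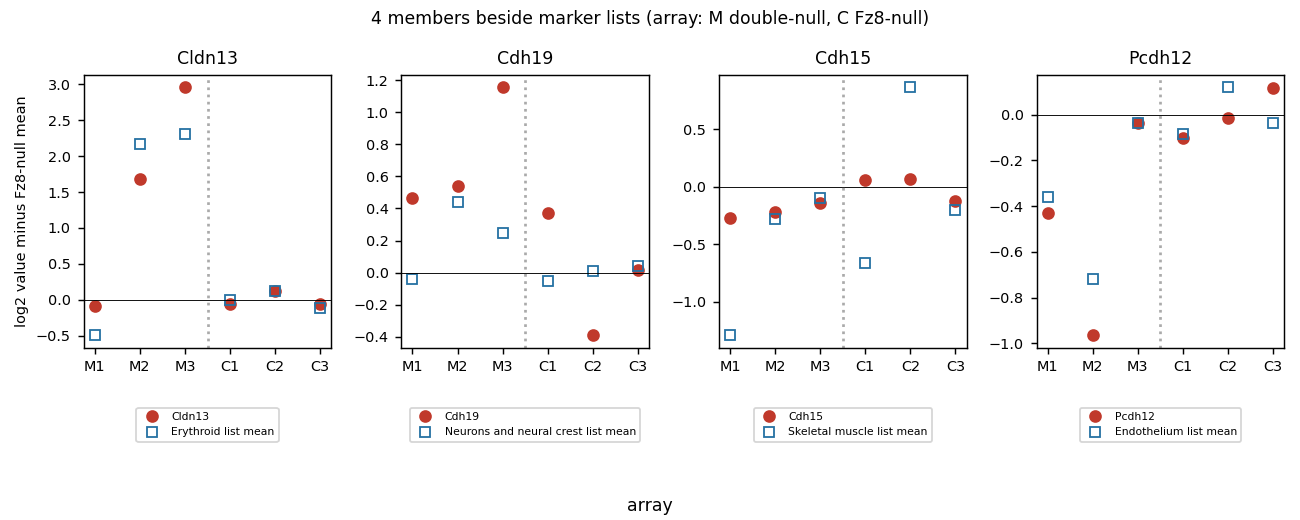
Log2 value minus the Fz8-null mean in each array (M, double-null, left; C, Fz8-null, right) for Cldn13, Cdh19, Cdh15 and Pcdh12 (filled), each beside the mean of a marker list (open squares). Cldn13 and the erythroid list are high in M2 and M3 alone, and Pcdh12 and the endothelium list are both lowest in M2. Several lists not shown, such as the ureteric epithelium list, are also lowest in M2. The muscle list is lowest in M1 and highest in C2, a spread that Cdh15 does not share. Cdh19 is highest in M3 and the neuron and neural crest list in M2.

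The clustered protocadherins, all on chromosome 18, were read as 22 Pcdhb genes and Pcdhgc4. In double-null kidneys 15 of the 23 were lower and 8 higher, with a median of -0.05; with quantile normalization this was 16 lower and 7 higher (median -0.19), with equal array medians 11 lower and 12 higher (median 0.0047), and without M1 and M2 it was 9 lower and 14 higher. Pcdhb22 read 5.66, 5.16 and 6.33 in double-null kidneys and 6.34, 6.22 and 6.57 in Fz8-null kidneys, M3 lying inside the Fz8-null range (-0.66, SE 0.29, limma adjusted p = 0.333). Pcdhb17 read 6.10, 5.30 and 6.03 in double-null kidneys and 6.50, 6.20 and 6.25 in Fz8-null kidneys, lower in each double-null array (-0.50, SE 0.24, limma adjusted p = 0.342). These proteins form combinations on neurons that let a cell tell its own branches from those of others.

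Pcdhb16 went the other way, with 7.76, 8.04 and 7.32 in double-null kidneys and 7.40, 7.34 and 7.22 in Fz8-null kidneys, and M3 inside the Fz8-null range (0.39, SE 0.20, limma adjusted p = 0.361). Pcdhb15, at 3.38, 3.44 and 3.62 in double-null kidneys and 3.81, 3.63 and 4.10 in Fz8-null kidneys, was lower in each double-null array but near background (-0.37, SE 0.16, limma adjusted p = 0.333). Pcdhb21 read 7.16, 6.93 and 7.43 in double-null kidneys and 7.27, 7.04 and 7.25 in Fz8-null kidneys, overlapping (-0.0094, SE 0.17, limma adjusted p = 0.981). Its second probe set, near background with a mean of 3.69, stood at 0.53 and was higher in each double-null array. Sequences of this cluster are alike, so a probe set may read more than the gene it is named for.

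Neighbouring members on a chromosome did not always share a direction. Of 8 pairs of adjacent members outside the Pcdhb cluster, 6 had differences of the same sign, among them Cldn3 with Cldn4, Cdh1 with Cdh3, Cdh7 with Cdh19 and Cldn1 with Cldn16. Cldn6 and its neighbour Cldn9 were opposite, at -0.67 and 0.44, but the second Cldn9 probe set stood at -0.36. Along the Pcdhb cluster 14 of 21 adjacent pairs had the same sign. The share of same-sign pairs among all adjacent genes was not computed, so these counts stand without a comparison. A further 6 probe sets were annotated to several Pcdha genes at once and belong to no member; their differences ran from -0.46 to 0.74. The most negative read 4.35, 4.46 and 4.75 in double-null kidneys and 4.90, 4.91 and 5.16 in Fz8-null kidneys, lower in each (limma adjusted p = 0.322 over the 45037 probe sets).

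Several probe sets were available for 31 members, and for 18 of these every other probe set had the sign of the one used, whereas for 13 at least 1 had the opposite sign.

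**Figure D5:**
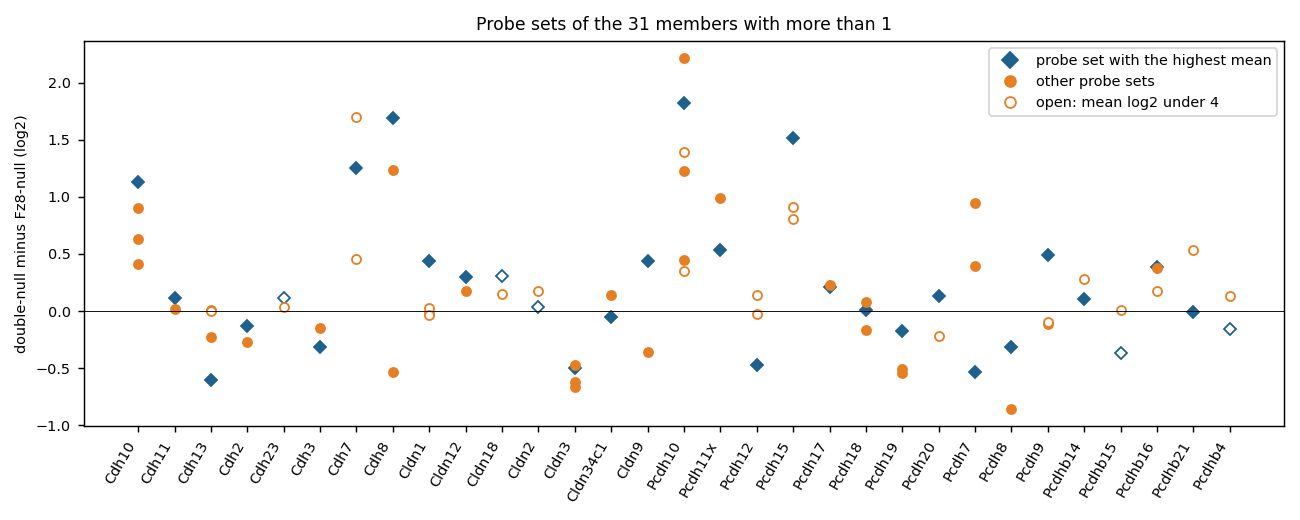
Difference between genotypes (double-null minus Fz8-null, log2) for every probe set of the 31 members with more than 1; diamonds mark the probe set with the highest mean, circles the others, and open symbols a mean log2 value under 4. All probe sets of Cldn3, Cdh10 and Pcdh10 lie on their gene's side of 0, while those of Pcdh7, Cdh8 and Cldn9 lie on both.

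No partner of the members at the junction passed over all genes. Most read lower, as did 10576 of 18193 genes in all and 7991 of 11174 with a mean of at least 6 (median -0.15). Among 9 catenins and relatives 6 read lower (median -0.22), with 4 lower and 1 higher at an unadjusted p under 0.05, against 9.23% and 6.05% of all genes. Jup, the plakoglobin shared by desmosomes and adherens junctions, read 8.81, 8.72 and 8.90 in double-null kidneys and 9.48, 10.23 and 10.09 in Fz8-null kidneys. All 3 double-null arrays were clearly below, M3 included (-1.12, SE 0.21, limma adjusted p = 0.299). Ctnna3, an alpha-catenin of heart and testis, read 6.00, 6.03 and 4.39 in double-null kidneys and 4.68, 3.58 and 3.50 in Fz8-null kidneys, with the split of M1 and M2 from M3 (1.56, SE 0.52, limma adjusted p = 0.314).

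Of 22 measured tight junction partners 18 read lower (median -0.24), with 4 lower and 0 higher at an unadjusted p under 0.05, against the same 9.23% and 6.05% of all genes. Jam2, a junctional adhesion molecule, read 4.65, 4.25 and 4.93 in double-null kidneys and 5.55, 5.59 and 5.59 in Fz8-null kidneys, lower in each double-null array (-0.96, SE 0.19, limma adjusted p = 0.307). Pard6b, a polarity scaffold, stood at -0.50 (SE 0.18, limma adjusted p = 0.314). Of 11 desmosome genes 8 read lower (median -0.22), and the smallest p belonged to Pkp3, a plakophilin, at -0.52 and Perp at -1.14. Both overlapped between groups. Perp read 6.16, 5.99 and 5.37 in double-null kidneys and 5.58, 7.68 and 7.66 in Fz8-null kidneys (SE 0.57, limma adjusted p = 0.357). Its C1 value lay below M1 and M2. Of 5 nectins and afadin 4 read lower (median -0.36), led by Nectin2 at -0.68 and Nectin4 at -0.53.

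The repressors of epithelial cadherin showed no common direction, with 4 of 6 lower (median -0.08). Zeb1 stood at -0.21 and Snai2 at 0.20, each without overlap between groups. Of 12 epithelial regulators and keratins 8 read lower (median -0.29). Esrp1, a splicing factor of epithelia, read 10.41, 10.28 and 10.10 in double-null kidneys and 10.69, 10.96 and 10.96 in Fz8-null kidneys, lower in each double-null array (-0.60, SE 0.15, limma adjusted p = 0.314), and Elf3 stood at -0.69. Of 6 ureteric epithelium markers 5 read lower, of 6 nephron progenitor markers all 6, of 5 committing nephron markers 4 and of 5 stroma markers 3. Of all 18193 genes 10576 did, and 4 of 6 macrophage markers read higher. Relative to the Fz8-null mean the ureteric list averaged -0.31, -0.55 and -0.24 in M1, M2 and M3. The nephron progenitor list averaged -0.95, -0.98 and -0.46, and the committing nephron list -0.28, -0.57 and -0.15. The stroma list averaged 0.21, -0.08 and 0.25. The part of epithelial cells in the claudin and Cdh1 values was not tested.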

How the data were processed

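Total RNA of whole kidneys (100 ng per sample) was hybridized to Affymetrix MOE430.2 arrays, per the labels' protocols. The deposited table holds 1 log2 intensity per probe set and array, with RMA named in the submitters' processing notes and its version not given in the sources used here. Of 45101 probe sets, 64 controls were set aside; 34945 of the other 45037 were annotated to 1 gene, 932 to several and 9160 to none. Each of 18193 genes was read from the probe set with the highest mean. limma 3.58.1 (R 4.3.3; lmFit, eBayes) compared the genotypes, two-sided, with Benjamini-Hochberg adjustment over all genes. Differences are double-null minus Fz8-null, each with the moderated standard error (SE). The procedure was tested on simulated data with independent noise and planted shifts larger than any member's difference. That test does not address shifts of the members' size or the split of M1 and M2 from M3. Arrays carry no read depth, so their number limits the precision, and with 3 against 3 an exact permutation test cannot go below 0.1.

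The members and lists were chosen with earlier results of these data known. Named members were those past the threshold, from each of 6 subfamilies the 2 of highest mean and the 3 of smallest p, and Cdh1, Cdh2, Cdh3 and Cdh11; from each partner list, members past the threshold or the 2 of smallest p. Lists are described by counts and medians. Alternatives were: array weights; the mean of a gene's probe sets; each array left out in turn; blocking on the replicate number; a trended, robust eBayes; quantile normalization; equal medians; and a floor of 6 on the mean. Leaving out M1 and M2 together was chosen after seeing the data. Correlations between deviations of arrays sharing a number were 0.17, -0.14 and 0.090, so the numbers were not taken to pair the samples.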

Additional observations from a re-analysis of the deposited data

How the results depend on the processing

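No member passed under 11 of the 14 alternatives. The exceptions were array weights (33 members among 7576 genes), leaving out M3 (18 members among 3292 genes), and leaving out M1 and M2 together (1 member, Cldn13, among 55 genes). The array weights ran from 0.21 for M3 to 3.93 for M1. Over all genes the number passing was 3 with the replicate block, 1 with the mean of all probe sets, and 2 to 3292 with an array left out, where 0 to 18 members passed. The replicate block changed no call for a member. Members lower at an unadjusted p under 0.05 numbered 1 with equal array medians, 19 with array weights, 5 with the mean of all probe sets, 0 to 16 with an array left out, and 1 without M1 and M2. Members higher numbered 3 with a minimum mean of 6, 19 with array weights, and 1 to 14 with an array left out.

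Of 355 values of the 26 named members under the alternatives, 303 kept their sign and side of the threshold, 30 came to pass it and 22 changed sign. Pcdhb21, near 0 as reported, stood at 0.11 with quantile normalization, 0.046 with equal medians, 0.021 with array weights, 0.26 with the mean of probe sets, -0.13 to 0.11 with an array left out (0.11 without M2, 0.032 without C1, 0.023 without C3) and 0.24 without M1 and M2. Pcdh18 stood at -0.025 with the mean of probe sets, -0.14 to 0.13 with an array left out (-0.14 without M1, -0.021 without C1, -0.062 without C2) and -0.22 without M1 and M2. Cdh23 stood at -0.056 with quantile normalization and -0.016 without M1 and M2. Cdh2 stood at 0.0099 with array weights and Pcdh7 at 0.27 with the mean of probe sets. Without M1 and M2, Cldn8 stood at -0.24, Cdh13 at 0.51, Cdh3 at 0.19, Cdh10 at -0.077 and Cdh11 at -0.080. The cause of these changes was not tested.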
